A study of Mus musculus with 6 samples.

Results

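Developmental transcription factors of the Dlx, En, Irx, Lhx, Msx, Nkx, Pax, Pitx, Sox, Tbx and Zic families, together with Six2 to Six6, Gata4 and Gata6, were examined in double-negative thymocytes. These early T cell precursors of the thymus lack both CD4 and CD8 at their surface. Members were chosen by gene symbol alone from the platform's probe table, in which every member probe set names exactly 1 gene; Pax5, a B cell factor, was left out by the rule, and the Otx family had 0 probe sets. This gave 82 probe sets of 62 genes, out of 12422 probe sets without controls. Total RNA was measured on 6 single-colour Affymetrix mouse arrays. By the sample descriptions, RAG1-deficient mice gave 3 arrays and RAG1/Ezh2 double mutant mice gave the other 3. Every sample is thus described as RAG1 mutant, and the groups differ in Ezh2. The labels do not give the alleles, the cell type in which Ezh2 was mutated, the strain, sex or age. Nor do they say whether the arrays of a group stand for separate animals. The p-values therefore set each group difference against the scatter among these arrays. That scatter need not be between animals and may be in part technical. The sample titles come in 3 styles, called numbered, Rag and Thy after their wording, with 1 array of each group in each style. The titles of the Rag style name T cells without the double-negative stage. The titles of the RAG1-deficient arrays of the numbered and Thy styles contain the letters WT, which the descriptions do not explain. The groups follow the descriptions. Values are given below in the order numbered, Rag and Thy.

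Ezh2 is the catalytic subunit of Polycomb repressive complex 2 and adds the silencing mark H3K27me3 to histone H3. In many mammalian cell types this mark covers the CpG-rich promoters of transcription factors that pattern the embryo, and the families described here are textbook examples of such genes. Most act in neural, skeletal, cardiac or endodermal development, whereas Sox4 and Sox13, which carry an HMG-box DNA-binding domain, are known from lymphocyte precursors, and Pax1 from the thymic epithelium. The comparison asks whether transcripts of these families differ between the RAG1-deficient and the RAG1/Ezh2 double mutant samples.

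The promoters of the members were rich in CG dinucleotides. RefSeq windows from 250 bases before to 50 bases after a transcription start (build GRCm38.p6) were found for 41 of the 62 genes, 53 windows in all. The median was 16 CG per window in the members and 7 over all 32851 windows of the table, and 42 of the 53 member windows (79.2%) lay above that overall median, against 48.6% of all windows. The letters GGGCGG, searched on both strands and holding 1 CG themselves, occurred in 56.6% of member windows and 35.7% of all windows. CCAAT occurred in 52.8% against 37.4%, and TATAAA in 11.3% against 13.6%, both searched on both strands. These counts describe sequence only and say nothing of what binds there.

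The windows of 5 members are shown because the results turn on these genes. Sox4 and Sox13 were the brightest members, and Pax1 followed the title styles. Pitx3 had the highest log2 difference of all members, and Nkx6-2 was lower in the double mutant without overlap. Each CG dinucleotide is in capitals, the 5 genes were picked after their values were seen, and all sequences run 5′ to 3′ on the strand of the gene. The window of Sox4 lies at chr13:28953650-28953949 on the minus strand and holds 12 CG. The window of Sox13 lies at chr1:133424163-133424462 on the minus strand and holds 40. The window of Pax1 lies at chr2:147364744-147365043 on the plus strand and holds 13. The window of Pitx3 lies at chr19:46148276-46148575 on the minus strand and holds 20. The window of Nkx6-2 lies at chr7:139582748-139583047 on the minus strand and holds 32.
Sox4: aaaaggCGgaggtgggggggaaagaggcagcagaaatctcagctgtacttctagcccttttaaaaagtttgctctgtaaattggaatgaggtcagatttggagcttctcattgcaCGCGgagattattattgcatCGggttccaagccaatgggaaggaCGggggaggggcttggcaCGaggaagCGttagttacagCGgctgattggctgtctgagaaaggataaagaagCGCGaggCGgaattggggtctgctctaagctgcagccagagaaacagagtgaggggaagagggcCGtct
Sox13: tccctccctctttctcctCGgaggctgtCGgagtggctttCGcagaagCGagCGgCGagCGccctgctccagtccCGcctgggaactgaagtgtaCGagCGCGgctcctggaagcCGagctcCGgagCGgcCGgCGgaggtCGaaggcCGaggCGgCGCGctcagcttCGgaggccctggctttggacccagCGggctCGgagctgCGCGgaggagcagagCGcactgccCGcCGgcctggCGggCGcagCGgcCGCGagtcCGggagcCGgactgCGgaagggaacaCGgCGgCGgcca
Pax1: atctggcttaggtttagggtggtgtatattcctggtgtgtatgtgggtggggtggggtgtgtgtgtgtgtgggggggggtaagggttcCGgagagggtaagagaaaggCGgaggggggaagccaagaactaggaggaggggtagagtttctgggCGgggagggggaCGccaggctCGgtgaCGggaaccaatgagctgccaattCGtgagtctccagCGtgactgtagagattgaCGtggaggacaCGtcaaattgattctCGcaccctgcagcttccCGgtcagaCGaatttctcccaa
Pitx3: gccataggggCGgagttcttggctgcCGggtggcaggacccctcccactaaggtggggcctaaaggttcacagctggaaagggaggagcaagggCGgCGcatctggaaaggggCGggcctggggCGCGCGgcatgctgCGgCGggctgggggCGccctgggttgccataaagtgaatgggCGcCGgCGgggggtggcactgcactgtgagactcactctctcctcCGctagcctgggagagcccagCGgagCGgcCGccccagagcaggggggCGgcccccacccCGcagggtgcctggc
Nkx6-2: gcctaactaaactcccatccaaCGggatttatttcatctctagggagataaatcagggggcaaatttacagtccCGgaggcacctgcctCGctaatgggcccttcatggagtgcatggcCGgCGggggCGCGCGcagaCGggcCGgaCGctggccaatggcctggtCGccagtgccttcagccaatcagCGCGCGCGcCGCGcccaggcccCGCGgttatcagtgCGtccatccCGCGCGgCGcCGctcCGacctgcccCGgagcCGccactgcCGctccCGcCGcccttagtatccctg

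The labels were checked first. Ezh2 stood at scaled intensities of 1435, 1641 and 1790 in RAG1-deficient and 291.5, 651 and 724 in double mutant arrays, without overlap, although it did not pass over all probe sets in the unpaired or the paired fit defined below; in the paired limma fit of brighter probe sets it fell (adjusted p = 0.0261). Of the 18 probe sets of double-negative thymocyte markers, 15 exceeded 86.5 on all 6 arrays (this is the 40th percentile of the values on all arrays), and the 3 that did not were those of Cd44. In this list 16 of the 18 probe sets lay below 0 in the log2 difference (double mutant minus RAG1-deficient), with a median of -0.23, and 0 passed in either fit. Ptcra, which encodes part of the pre-TCR, stood at 6588, 10480 and 8063 against 5140, 5964 and 4614, and the brighter of the Rag1 probe sets at 6933, 7241 and 7264 against 5394, 5226 and 5171, both lower without overlap. The RAG1-deficient numbered array also carried Cd8b1 at 8426 and Cd8a at 2973, whereas no other array exceeded 164 and 81.3 for these genes. The 8 probe sets of double-positive (CD4 and CD8) stage markers had summed intensities without overlap. These ran from 1421 to 13320 in RAG1-deficient and from 1082.5 to 1203 in double mutant arrays. Their median log2 difference was -0.70, with 1 above and 7 below 0, and 0 passed in either fit. Cd4 stood at 699, 184 and 172 against 273, 101 and 52.3, lower in each pair though the groups overlap. Markers of other cells, as summed intensities, ran in RAG1-deficient and double mutant arrays from 2251 to 3012 and from 2337 to 3045 for mesenchyme, from 411 to 786 and from 269 to 637 for endothelium, from 2827 to 4087 and from 2405 to 3004 for B cells, and from 3723 to 12745 and from 3151 to 5558.5 for myeloid cells. The NK and innate lymphoid sum ran from 4965.5 to 6961.5 and from 11164 to 12924. This separation came from Gzma, a granzyme and the only probe set of the list to rise in the paired limma fit over all probe sets (adjusted p = 0.0223). Gzmb, another granzyme, was also higher without overlap, at 191, 199 and 298.5 against 414, 553 and 903. It rose in the paired limma fit of brighter probe sets (adjusted p = 0.0261). Without Gzma the sum was 4165, 4319 and 3721 against 4827.5, 3625 and 6181.5, which overlap, and the 15 probe sets of the list had a median log2 difference of 0.04, with 8 above and 7 below 0. In the mesenchyme list Pdgfrb was higher without overlap, at 135, 210 and 202 against 420, 536.5 and 405. It rose in the paired limma fit of brighter probe sets (adjusted p = 0.0436) but not over all probe sets. Of the 20 probe sets of that list, 6 lay above and 14 below 0. The part of these other cell types in the member values was not tested.

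The members were mostly dim, and most stayed so in the double mutant. Of the 82 probe sets, 45 lay at or below 86.5 on every array, 21 lay above it on at least 3 arrays, and 7 lay above it on all 6. That level is used here as a filter on dim signal, and 61.5% of all probe sets passed it, against 25.6% of the members. The Dlx, En, Irx, Lhx and Nkx families had 0 probe sets past it. The median member intensity was 57.6, 20.3 and 40.5 on the RAG1-deficient arrays and 42.3, 16.8 and 36.0 on the double mutant arrays. The Rag arrays were thus the lowest in both groups, and the RAG1-deficient numbered array was the highest. No detection calls were used, so a dim value is only a low signal and not proof that a transcript is missing.

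**Figure D1:**
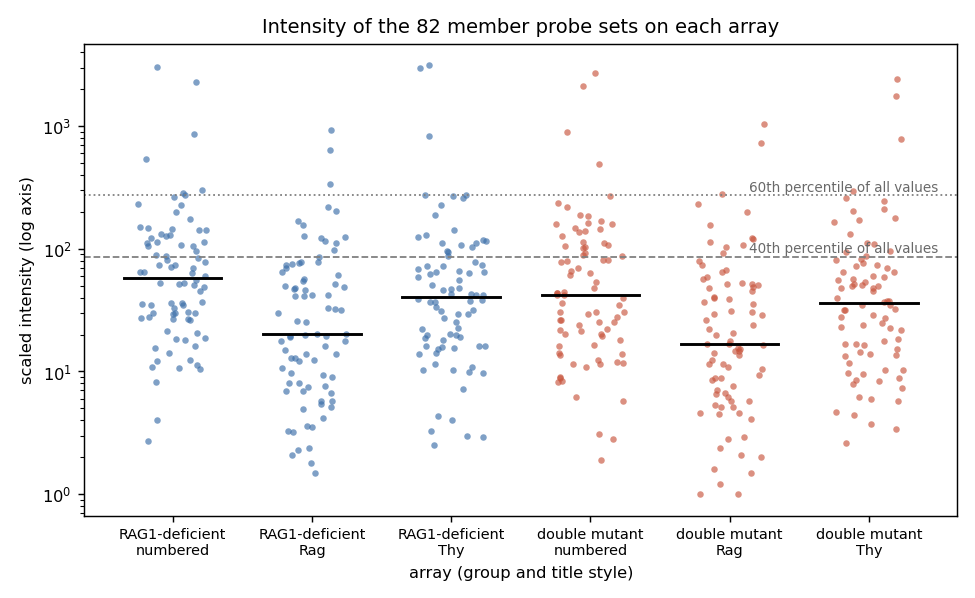
Scaled intensity (log axis) of the 82 member probe sets on each of the 6 arrays; points are probe sets, black bars are medians, and the lines mark the 40th (86.5) and 60th (273.7) percentiles of all values. Between 3 and 7 members exceed the upper line on an array, and the medians of both Rag arrays (20.3 and 16.8) are lower than those of the other 4.

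No member was called higher or lower. Tests used log2(intensity + 23), on which changes of dim probe sets come out too small. The limma fit with group alone (the unpaired fit) gave 0 of 82 members past an adjusted p of 0.05, and 0 at an unadjusted p under 0.05. Over all 12422 probe sets the same fit called 3 (0.0242%), all higher, and 2.85% had an unadjusted p under 0.05. When each title style formed a block (the paired fit), limma called 0 members again, against 5 of all probe sets (0.0403%). There 4 members had an unadjusted p under 0.05, all of them lower, which is 4.88% against 10.2% of all probe sets (4.57% lower and 5.59% higher). The smallest adjusted p of any member in the paired limma fit was 0.391, and it was 0.305 where only probe sets past the filter were tested, a setting in which limma called 0.667% of the probe sets in the paired and 0.0393% in the unpaired fit. With the paired fit the upper end of the 95% interval of the log2 difference lay under 1 for 74 of the 82 members and under 2 for all 82, each interval taken by itself and on the compressed scale. Too few arrays are at hand to tell a small change from none.

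The members lay slightly below 0 as a group, in each pair and without any 1 pair, but not without certain single arrays. The log2 difference, double mutant minus RAG1-deficient, had a median of -0.10 over the members and -0.02 over all probe sets, and 57 of 82 members (69.5%) lay below 0 against 53.8% of all probe sets. Among the probe sets under the filter the median was -0.09 for the members and -0.06 whatever the gene, and 59.16% of all these dim probe sets lay below 0. Past the filter it was -0.11 for the 21 members and -0.002 for all probe sets. Within the pairs the member median was -0.14 (numbered), -0.06 (Rag) and -0.09 (Thy), where all probe sets gave -0.06, 0 and 0.01. All probe sets under the filter gave -0.17, -0.01 and 0.02. Lower values in all 3 pairs were seen for 22 members (26.8%, against 17.1% of all probe sets) and higher values in all 3 for 3 members (3.66%, against 15.4%). The unpaired median became 0.02 without the RAG1-deficient numbered array and 0.03 without the double mutant Rag array, and -0.30 without the RAG1-deficient Rag array. The median of all probe sets moved in the same direction, to 0.03, 0.04 and -0.10. Without the RAG1-deficient numbered array 39 of 82 members lay below 0, against 46.15% of all probe sets. Leaving out a whole pair in the paired fit kept the member median below 0, at -0.08 without the numbered, -0.13 without the Rag and -0.13 without the Thy pair, with 54, 56 and 53 of 82 members below 0. In the same fits 49.7%, 53.8% and 55.1% of all probe sets lay below 0, with medians of 0.002, -0.03 and -0.04. Among all probe sets under the filter the shares were 49.8%, 59.7% and 62.7%, with medians of 0.001, -0.08 and -0.10. The RAG1-deficient numbered array held the highest value of 36 of the 82 members, while it held the highest value of 26.2% of all probe sets. That share was not taken among dim probe sets alone. The lowest value lay on a Rag array for 76.8% of the members and for 54.7% of all probe sets. The 20th percentile of all values was 13.9 and 13.8 on the Rag arrays and lay between 25.9 and 34.7 on the other 4. The double-negative thymocyte markers, with their median of -0.23, were also lower than all probe sets. The part of these array differences, or of the shift in the thymocyte markers, in the member median was not tested.

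**Figure D2:**
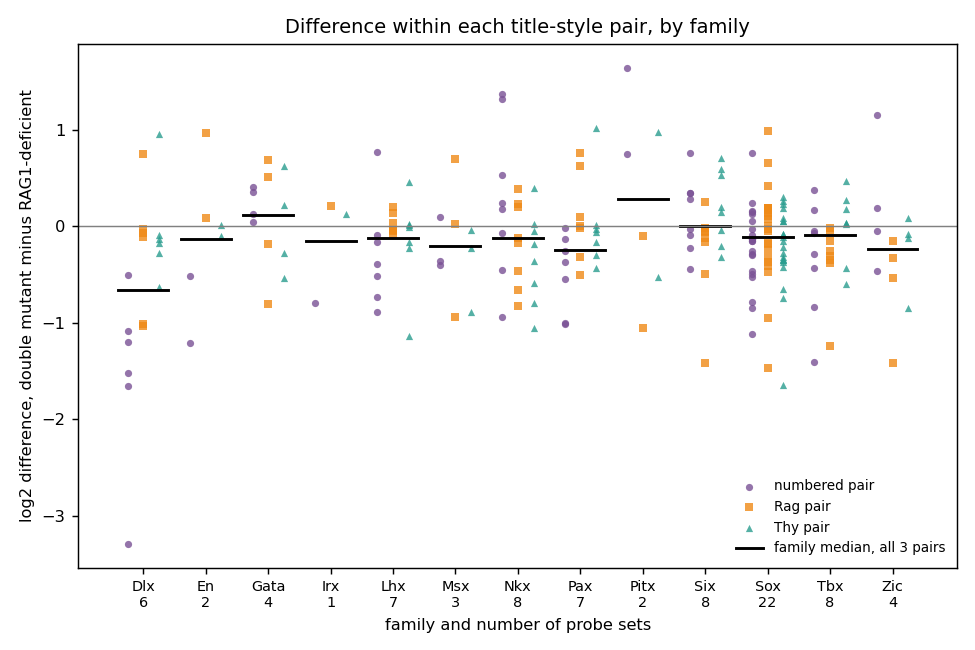
Log2 difference (double mutant minus RAG1-deficient) of each member probe set in each title-style pair, by family, with the number of probe sets under each name; black bars are family medians over all 3 pairs. Points of every pair lie on both sides of 0, and the lowest is Dlx1 in the numbered pair at -3.29.

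Sox4 and Sox13, HMG-box factors, were the brightest members. Sox13, known from gamma-delta T cells, stood at 856, 636.5 and 833 in the RAG1-deficient and 893, 727 and 787 in the double mutant arrays. These ranges overlap and lie close together. Its log2 difference was 0.05 ± 0.12 (SE, paired fit), with a 95% interval from -0.24 to 0.35. Sox4, needed for lymphocyte development, was read by 2 probe sets. The brighter (160109_at) stood at 3048.5, 921 and 3122.5 in the RAG1-deficient and 2731, 1049.5 and 2417 in the double mutant arrays. The other (101430_at) stood at 2279, 170 and 2986 against 2136, 281 and 1772. In both groups and on both probe sets the Rag array was the lowest, by more than any difference between the arrays of a pair. The log2 difference was -0.11 ± 0.13 (SE, paired fit) with an interval from -0.43 to 0.20 for the brighter probe set, and -0.06 ± 0.25 (SE, paired fit) with an interval from -0.65 to 0.53 for the other.

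Lef1, another HMG-box factor of the T lineage, was also lowest on the Rag arrays, at 5192, 1164 and 3656 in RAG1-deficient and 4545, 741 and 3067 in double mutant arrays. Gata3, the GATA factor of the T lineage, did not share this order, at 1107.5, 1420 and 1108 against 1516, 1881 and 772. The 3′ beta-actin control probe set was low on the Rag arrays as well, at 4448 and 5826 against 23267 or more on the other 4, and its ratio of 3′ to 5′ signal was 2.26 and 2.77 there against 1.24 to 1.99. The Gapdh control ratio was also highest on the Rag arrays, at 1.35 and 1.14 against 0.836 to 1.04 on the other 4. The part of RNA quality or cell composition in the Sox4 values was not tested, and fewer cells of a type and less RNA per cell cannot be told apart in such bulk samples. Of the 10 probe sets in the list of T lineage HMG and GATA relatives, 0 passed in either fit, with 5 above and 5 below 0.

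Pax1, a paired-box factor of the pharyngeal pouches and thymic epithelium, followed the title style. Its intensity was 535, 338 and 88.1 in the RAG1-deficient and 488, 232 and 59.6 in the double mutant arrays. The Thy array was the lowest in both groups. The log2 difference was -0.35 ± 0.20 (SE, paired fit), lower in each of 3 pairs, and did not pass (adjusted p = 0.625 in the paired limma fit).

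Of the 9 probe sets past the filter in the thymic epithelium list, 3 were likewise lowest on the Thy array in both groups, and they are named here for that order. The keratin gene Krt8 stood at 1131.5, 855.5 and 27.3 in RAG1-deficient and 975, 522 and 48.7 in double mutant arrays. The chemokine gene Ccl25, made by thymic epithelium, stood at 1502, 1502 and 62.3 against 1318, 1076 and 74.6, and the brighter probe set of Krt18 at 1336, 1100 and 104.5 against 1210, 898 and 175. The others did not share it. Epcam, an epithelial adhesion molecule, stood at 116, 217 and 236 against 119, 149 and 193, and Cldn3, a tight junction claudin, at 90.0, 59.4 and 116 against 58.5, 74.9 and 136 on its brighter probe set, so both were highest on the Thy arrays. Trp63, Aire, Cldn4 and the brightest probe set of Fgfr2 were highest on the Thy array of 1 group. Cldn4 stood at 1159, 647 and 577 against 453, 197 and 510.5, so in RAG1-deficient arrays it was lowest on the Thy array. It was lower in the double mutant without overlap, and did not pass (adjusted p = 0.300 in the paired limma fit). Over all 16 probe sets of the thymic epithelium list the summed intensity ran from 1791 to 6139 in RAG1-deficient and from 1818 to 4937 in double mutant arrays. Of these, 0 passed in either fit and 10 lay below 0. Foxn1, the defining factor of that epithelium, was dim on every array, at 67.0 or less, and so was Krt5. The part of epithelial cells in the Pax1 signal was not tested. Pax9, a close relative of Pax1, was dim on all 6 arrays, at 29.7 or less.

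**Figure D3:**
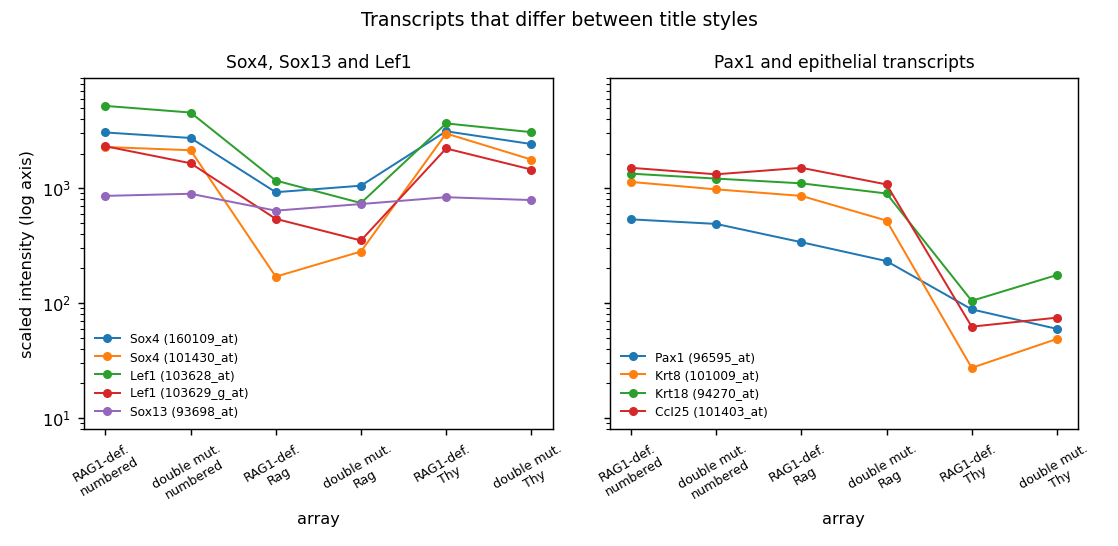
Scaled intensity (log axis) on the 6 arrays, ordered by title style, for Sox4, Sox13 and Lef1 (left) and for Pax1, Krt8, Krt18 and Ccl25 (right); each line is a probe set. Sox4 and Lef1 are lowest on the Rag arrays of both groups, and Pax1 and these 3 of the epithelial transcripts on the Thy arrays of both groups.

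Among members with values above 0, Pitx3 and Gata4 had the smallest p. Pitx3, a homeobox factor of lens and midbrain dopamine neurons, stood at 35.8, 112.5 and 56.1 in the RAG1-deficient and 160, 104 and 132 in the double mutant arrays. The groups overlap through the Rag pair, in which the double mutant was not higher. The log2 difference was 0.84 ± 0.38 (SE, paired fit; adjusted p = 0.521 in limma). Gata4, a zinc-finger factor of heart and endoderm, stood at 198, 116 and 108 against 217, 200.1 and 178. It was higher in each of the 3 pairs, by 0.12, 0.68 and 0.63 on the log2 scale, yet the groups overlap because the RAG1-deficient numbered array reached the double mutant range. Its log2 difference was 0.48 ± 0.24 (SE, paired fit; adjusted p = 0.566 in limma). The 3 probe sets of Gata6 had log2 differences of 0.20, 0.03 and -0.31.

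The other 6 members above 0 with the smallest p, Sox11, Nkx2-9, Lhx9, Six4, Nkx2-3 and Six3, were dim, with means under the filter level. Sox11, a factor of neural progenitors, stood at 69.6, 6.7 and 47.9 against 80.3, 35.8 and 50.8 on 1 probe set (101631_at), but a second (93669_f_at), of the kind that can detect related transcripts, went the other way, with 34.7, 5.7 and 13.8 in RAG1-deficient and 9.0, 1.2 and 4.4 in double mutant arrays. The LIM-homeobox gene Lhx9 stood at 8.2, 3.6 and 16.2 against 30.3, 7.6 and 16.7 on 1 probe set (93644_at), a log2 difference of 0.33, and at 10.9, 4.2 and 3.3 against 2.8, 2.8 and 3.7 on the other (93643_at), a log2 difference of -0.15. Lhx9 therefore had opposite signs on probe sets that both lie near the floor.

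The homeobox gene Nkx2-9 stood at 27.7, 12.9 and 15.7 in the RAG1-deficient and 103, 8.8 and 27.9 in the double mutant arrays, a log2 difference of 0.51. Nkx2-3, a homeobox factor of gut and spleen mesenchyme, stood at 30.3, 9.8 and 66.2 against 115, 19.9 and 28.6, a log2 difference of 0.32. In both genes the double mutant numbered array was the highest of all 6. Six4 stood at 88.7, 54.9 and 33.6 against 112.5, 52.4 and 69.5 on its probe set with the smallest p (92999_at), a log2 difference of 0.31. Its other probe sets stood at 96.2, 15.1 and 43.1 against 78.9, 22.2 and 72.5 (93000_g_at, 0.18) and at 29.5, 12.8 and 2.5 against 43.7, 2.4 and 6.2 (93001_at, 0.02). Six3, a factor of the forebrain and eye, stood at 11.2, 4.9 and 3.0 against 34.7, 4.6 and 5.8 (102900_at), a log2 difference of 0.30, and at 10.6, 7.5 and 22.5 against 19.6, 5.1 and 13.4 on its other probe set (102901_at, -0.03). Each of these probe sets overlapped between the groups and was not higher in at least 1 pair. Of the 14 genes with several probe sets, 7 had probe sets on both sides of 0.

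Among members with values below 0, the Sox3 probe set 103301_i_at had the smallest p of all. Sox3, a factor of neural progenitors, stood there at 113.5, 75.5 and 129 in the RAG1-deficient and 39.8, 12.5 and 96.0 in the double mutant arrays. It was lower in every pair, and the groups overlap. The log2 difference was -0.98 ± 0.32 (SE, paired fit; adjusted p = 0.391 in limma). The other 3 probe sets of Sox3 had log2 differences between -0.13 and 0.09. Of these, 103302_r_at, made against the same database sequence, stood at 233, 69.3 and 275 against 163, 73.9 and 293, 161276_i_at at 34.5, 3.5 and 64.9 against 25.2, 6.2 and 49.7, and 92264_at at 26.8, 9.1 and 16 against 21.8, 13.6 and 22.8. The low value of Sox3 thus rests on 1 of 4 probe sets. Zic2, a zinc-finger factor of the developing brain, showed a like disagreement between probe sets. Its probe set 98843_at stood at 44.9, 17.6 and 29.2 against 26.2, 5.1 and 6.0, a log2 difference of -0.61, whereas the brighter 98844_at stood at 52.7, 122 and 188 against 145, 92.9 and 170.5, a log2 difference of 0.23 that was positive in the numbered pair alone. Tbx2, a T-box repressor of heart and limb, stood at 150, 128 and 59.0 against 105, 40.8 and 37.7 on its brightest probe set, a log2 difference of -0.70, and its other 2 probe sets had -0.56 (80.6, 41.7 and 78.5 against 16.2, 29.1 and 80.9) and 0.10 (51.6, 19.4 and 38.4 against 61.1, 15.2 and 51.3). Neither of these Zic2 and Tbx2 probe sets passed (adjusted p = 0.405 and 0.504 in the paired limma fit).

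The Dlx family, homeobox factors of the forebrain, branchial arches and limb, had the lowest median of the families with several members, -0.66 over 6 probe sets, 5 of them below 0. All 6 lay under the filter. Dlx5 stood at 52.2, 32.4 and 62.7 in the RAG1-deficient and 12.5, 4.1 and 47.8 in the double mutant arrays, a log2 difference of -0.80. Dlx4 stood at 113, 17.8 and 73.5 against 20.3, 14.7 and 39.5, also -0.80. Both were lower in every pair, and neither passed (adjusted p = 0.405 and 0.508 in the paired limma fit). Dlx1, at 262, 5.1 and 10.3 against 6.2, 4.6 and 7.3, owed its log2 difference of -1.15 to the RAG1-deficient numbered array. The Dlx median was -1.36 in the numbered pair, against -0.09 (Rag) and -0.16 (Thy).

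Lhx3 and Nkx6-2 were the only members whose groups did not overlap, both lower in the double mutant (2.44%, against 3.13% of all probe sets lower and 3.37% higher, 6.5% in all). Lhx3, a LIM-homeobox factor of pituitary and motor neurons, stood at 74.2, 49.6 and 64.6 against 29.6, 47.5 and 16.8. Nkx6-2, a homeobox factor of the neural tube and oligodendrocytes, stood at 33.0, 41.1 and 38.9 against 18.0, 17.7 and 31.5. All of these values lie under the filter. The paired log2 differences were -0.69 ± 0.31 (SE) and -0.43 ± 0.24 (SE), and neither passed in limma (adjusted p = 0.518 and 0.607). Nkx2-2, at 60.1, 1.5 and 42.3 against 20.3, 5.8 and 8.4, had a log2 difference of -0.59 and was not lower in the Rag pair.

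**Figure D4:**
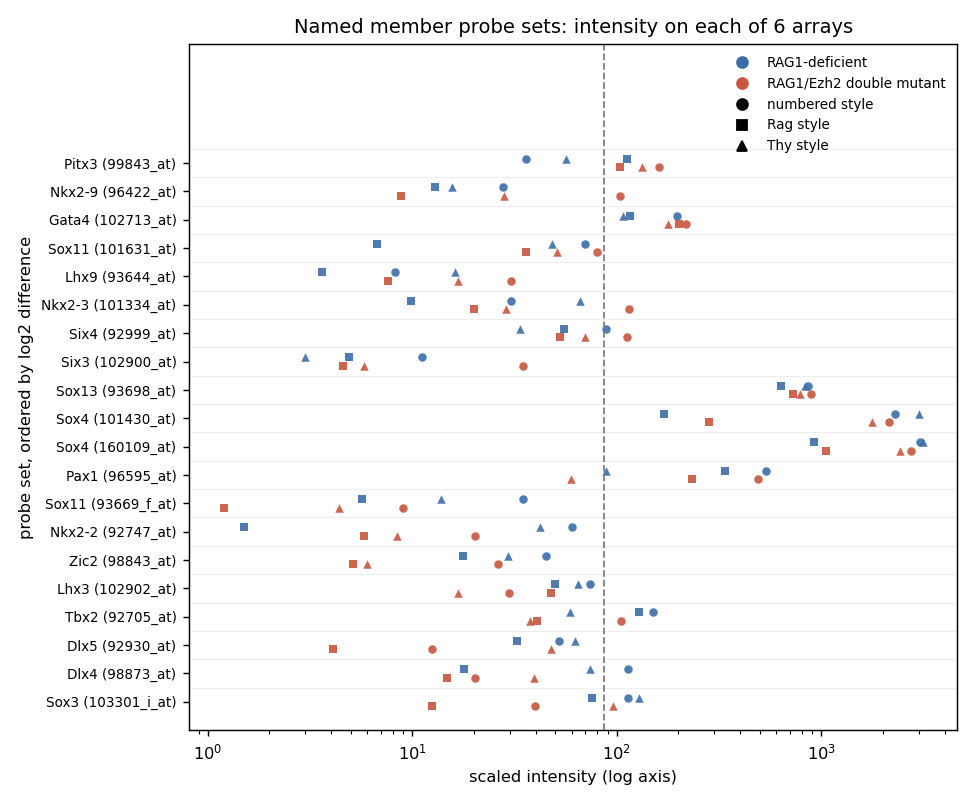
Scaled intensity (log axis) of 20 named member probe sets on each array, ordered by log2 difference; colour gives the group, the symbol gives the title style, and the dashed line marks 86.5. Only Sox13, Sox4 and Gata4 stay to the right of the line on all 6 arrays, and the groups overlap in every row except that of Lhx3.

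The remaining members past the filter overlapped between the groups, and none of them passed in either fit. Sox10, a neural crest factor, stood at 274, 125 and 270 against 188, 108 and 209 on its brighter probe set, a log2 difference of -0.34. Tbx6, a factor of the paraxial mesoderm, stood at 300, 205 and 227.5 against 158, 155 and 261, also -0.34, and was higher in the Thy pair. Pax4, a pancreatic islet factor, stood at 228, 156 and 275 against 187, 121 and 244, a log2 difference of -0.25 that was negative in every pair. Six2, a kidney progenitor factor, had -0.57, with 287, 218 and 111 against 267, 67.3 and 93.3, so that most of the difference lay in the Rag pair. The homeobox genes Msx1 and Msx3 had -0.20 and -0.45, Pitx1 had -0.27, Pax2 had -0.09, and Sox1, Sox7 and Sox15 lay between -0.04 and 0.11. The dim members not named had log2 differences between -0.53 and 0.25, and none of them passed in either fit.

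No partner of these factors and no other developmental regulator listed passed either. Of 24 probe sets of cofactors and signals, chosen as Eya, Dach, Ldb, Lmo, Tle and related genes, 0 passed in either fit, with 14 above and 10 below 0 and a median log2 difference of 0.03; these were brighter than the members, 14 of the 24 lying past the filter. Shh, a signal that patterns the neural tube and limb, was dim and lower without overlap, at 105, 81.9 and 115 against 48.2, 39.4 and 36.1, and did not pass (adjusted p = 0.352 in the paired limma fit). Eya1, a transcriptional coactivator, stood at 365, 256 and 569.5 against 278, 227 and 450.1 on its brighter probe set. Of 68 probe sets of other developmental factors, such as Prrx, Fox, Hand, Neurog and Pou genes, 9 passed the filter and 0 passed either fit, with 24 above and 44 below 0 and a median log2 difference of -0.12. In this list 1 of the 68 probe sets was higher and 2 were lower without overlap, against 3.37% higher and 3.13% lower among all probe sets. Over all probe sets 53.8% lay below 0.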

How the data were processed

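The deposited table holds 1 linear intensity per probe set and array; what software made it is not given in the sources used here. The authors' intensities have a 2%-trimmed mean between 500.293 and 500.37 on each array, which shows scaling to a common mean before deposit; a shift of most transcripts together would not be visible. The 66 controls were removed. Samples were grouped by their descriptions. Values were tested as log2(intensity + 23), 23 being the rounded 20th percentile, with limma 3.58.1 in R 4.3.3 (lmFit, eBayes with trend, two-sided) and Benjamini-Hochberg adjustment over all 12422 probe sets, without a filter because dim members were kept. Fits were tested on simulated data. Members and lists were chosen with earlier results of these data known. The pairing is read from title wording; deviations from group means correlated at 0.44, 0.632 and 0.479 within the numbered, Rag and Thy styles, all above the limit of 0.1. Members given with all 6 values were those with a mean above the 60th percentile (273.7), the 8 with the smallest paired p in each direction and other probe sets of these genes; further members, and the genes of the other lists, were named after their values were seen. The sum without Gzma was added after its values were seen. The number of arrays limits precision. Alternatives were the block, quantile scaling, pseudocounts of 1 and 100, the filter, no trend, 1 probe set per gene, and leaving out arrays or pairs. Figures used matplotlib 3.10.9.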

Additional observations from a re-analysis of the deposited data

How the results depend on the processing

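The count of members called was 0 under every alternative run, with all arrays or with any array or pair left out. Over all probe sets the unpaired limma fit called 3, the replicate block called 5, and the block together with the filter, an alternative chosen after seeing the data, called 51. Leaving out 1 array gave between 0 and 4, and leaving out the numbered, Rag or Thy pair under the block gave 9, 48 and 1. The median log2 difference of the members was -0.17 with a pseudocount of 1, and leaving out 1 array moved it to values from -0.30 to 0.030. The members without overlap numbered 6 after quantile scaling (7.32%, against 8.15% of all probe sets), 0 of the 21 past the filter (against 7.13%), and between 3 and 18 with 1 array left out. With 3 arrays against 2, between 13.6% and 19.1% of all probe sets were without overlap. The 18, without the RAG1-deficient Rag array, were 22% of the members against 19.1% of all probe sets, and the 3, without the RAG1-deficient numbered array, were 3.66% against 14.5%. With 1 array left out, the log2 difference changed sign for Nkx2-3 (-0.19 to 0.69), Nkx2-9 (-0.038 to 0.96), Pax1 (-1.02 to 0.36), Six3 (-0.049 to 0.48), Sox11 (-0.082 to 0.74), Sox13 (-0.077 to 0.13) and both probe sets of Sox4 (-1.32 to 0.84 and -0.69 to 0.31). It changed sign under the block for Nkx2-3 (-0.20 without the numbered pair), Sox13 (-0.010 without the Rag pair) and Sox4 (0.28 and 0.013 without the Thy pair); the cause was not tested. Leaving out 1 array leaves its title style in 1 group only. The other 12 of 20 named probe sets kept their direction under every alternative run. Without detection calls, a change confined to signals near the array's floor could not be read here.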
